A study of Homo sapiens with 12 samples.

Results

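Glutathione peroxidases and antioxidant genes of the NRF2 programme were followed in A375 cells, a human melanoma line with an activated BRAF gene, and in A375/211, the same line overexpressing MIR211, from which the microRNA miR-211 is made. The 10 genes are GPX1, GPX3, GPX4, GPX8, TXNRD1, NQO1, GCLM, GCLC, HMOX1 and SRXN1, taken by name and matched to their Ensembl identifiers through GENCODE 44 (hg38), out of 60675 gene identifiers in each count table. Total RNA was measured by RNA-seq in 2 untreated libraries of A375 and 2 of A375/211, labelled a and b and called replicates 1 and 2 here. Labelled RNA was measured by BRIC-seq, in which cells take up 5-bromouridine (BrU), here for 24 h, and the BrU-containing RNA is then pulled down with an antibody after a chase without the label. BRIC-seq had 1 library of each line at 0, 1, 3 and 6 h of chase. Whether A375/211 is 1 clone, and which promoter drives MIR211 in it, is not given in the sources used here. With 1 line on each side, MIR211 and any other difference between the lines cannot be told apart.

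Glutathione peroxidases reduce hydrogen peroxide and lipid peroxides with electrons from glutathione, and thioredoxin reductase passes electrons from NADPH to thioredoxin, which keeps the peroxide-reducing peroxiredoxins active. NRF2, encoded by NFE2L2, is a transcription factor that KEAP1 holds at a low level until oxidants or electrophiles release it. It then binds antioxidant response elements near genes such as NQO1, GCLM, GCLC, TXNRD1, HMOX1 and SRXN1. In melanoma these systems are known for buffering the oxidants that arise from pigment synthesis, metastasis and drug treatment, and GPX4 for protecting cells from ferroptosis, a death by lipid peroxidation.

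The catalytic residue divides the peroxidases, and the codon that encodes it is shown because it sets the selenium-dependent members apart from GPX8. GPX1, GPX3, GPX4 and TXNRD1 carry an annotated selenocysteine, written by an in-frame TGA, whereas the aligned codon of GPX8 is TGC, for cysteine. Each run below is coding sequence from GENCODE 44 transcripts (hg38), 5′ to 3′ on the gene's strand, with that codon in capitals.
GPX1 (codon 49, chr3:49358132-49358134, minus strand): gtggcgtccctcTGAggcaccacggtc
GPX3 (codon 73, chr5:151025469-151025471, plus strand): gtggccagctacTGAggcctgacgggc
GPX4 (codon 73, chr19:1105403-1105405, plus strand): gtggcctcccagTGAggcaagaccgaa
GPX8 (codon 79, chr5:55161024-55161026, plus strand): gtggccagtgacTGCcaactcacagac
TXNRD1 (codon 648, chr12:104348413-104348415, plus strand): caggctggctgcTGAggt
In TXNRD1 the selenocysteine codon is next to last of 649 codons. Over their translated coding sequences the peroxidases shared from 34.2% of aligned residues (GPX3 with GPX8) to 46.5% (GPX1 with GPX3).

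The antioxidant response element was searched by its core TGACNNNGC, on both strands, in RefSeq promoter windows (GRCh38.p14) that run from 250 bases before to 50 bases after a gene's start. The core overlaps the AP-1 site TGACTCA in its first letters. Of the 9 members with such a window, 2 held it in any of their windows, GCLM and TXNRD1. Over all genes 13.3% of 35116 single windows held it. That share counts windows and not genes, and TXNRD1 and GPX4 have multiple windows, so it is only a rough background. Sequence farther from the start was not searched. The matches are shown, with the core in capitals, because these members are reported targets of NRF2.
GCLM (chr1:93909431-93909489, minus strand): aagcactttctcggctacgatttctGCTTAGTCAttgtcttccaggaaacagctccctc
TXNRD1, upstream start (chr12:104215655-104215713, plus strand): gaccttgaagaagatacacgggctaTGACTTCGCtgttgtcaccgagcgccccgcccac
TXNRD1, downstream start (chr12:104286905-104286963, plus strand): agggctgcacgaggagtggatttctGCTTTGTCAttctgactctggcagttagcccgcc
A further match lay 8 bases before the upstream start of TXNRD1. These are matches of letters and not measured binding sites.

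The overexpressed microRNA was compared with the members' 3′ untranslated regions. Mature miR-211-5p (RefSeq, GRCh38.p14, chr15:31065095-31065116, minus strand) is shown with its seed, bases 2 to 8, in capitals, followed by the first match to the seed, AAAGGGA, in the members that hold one.
miR-211-5p: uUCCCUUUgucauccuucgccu
SRXN1 (chr20:647058-647064, minus strand): agtccctggggAAAGGGAacagagtaagg
TXNRD1 (chr12:104349948-104349954, plus strand): aagaaatgggaAAAGGGAaaaggagagag
SRXN1 held 2 such matches, TXNRD1 held 1, and the other 8 members held 0. Over all genes, 17.4% of 19210 annotated 3′ untranslated regions held at least 1. In total RNA, neither SRXN1 (log2 difference -0.23, SE 0.19) nor TXNRD1 (log2 difference 0.07, SE 0.32) passed the test between the lines given below.

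The label of the lines was checked on MIR211, whose RNA-seq counts were 0 and 0 in A375 and 36 and 18 in A375/211. DUSP3, a reported target of miR-211, had 67.8 and 71.8 CPM (counts relative to the scaled library size) in A375 and 15.02 and 10.4 CPM in A375/211, a log2 difference of -2.46 (SE 0.25, edgeR adjusted p = 0.0533), which passed with DESeq2, with no count filter, with a mean CPM of at least 5 and with a replicate block. RNA-seq libraries held 20.85 to 34.13 M counts and BRIC-seq libraries 2.67 to 7.28 M. In BRIC-seq the depth rose with chase time in both lines, from 2.67 to 7.28 M in A375 and from 2.78 to 6.66 M in A375/211. The 12 melanoma line markers summed to 1111 and 1119 CPM in A375 total RNA and to 1067 and 1082 CPM in A375/211, a sum that holds opposite differences. MITF, the melanocyte transcription factor, had 253 and 244 CPM in A375 and 38.8 and 49.0 CPM in A375/211 and was the 1 of 10 tested that passed, as lower (log2 -2.50, SE 0.20, edgeR adjusted p = 0.0448). S100B had 32.6 and 29.0 against 94.6 and 100.1 CPM (edgeR adjusted p = 0.0533), and PMEL 13.3 and 7.93 against 3.86 and 3.56 CPM (edgeR adjusted p = 0.18); both passed with DESeq2. The call of MITF was lost without any 1 of the 4 libraries (edgeR adjusted p from 0.0663 to 0.094). PTPRC, CD3E and TYROBP of the 6 leukocyte markers, PECAM1 and CDH5 of the 5 endothelial markers, and 5 of the 7 keratinocyte markers in the tables were at 0 counts in all RNA-seq libraries. Others of these lists were counted in every RNA-seq library, among them LYZ (25 to 60 counts), KDR (68 to 281) and KRT10 (415 to 611). All 6 fibroblast markers were seen in at least 1 RNA-seq library, and the sums of these lists are given below.

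Levels of the members in total RNA spanned a wide range within each line. Compared per length, as CPM per kilobase of merged exons averaged over the 4 RNA-seq libraries, NQO1 was highest at 118, followed by TXNRD1 at 51.1, GPX1 at 46.6, GPX4 at 42.5 and SRXN1 at 38.0. GPX8 lay lower at 10.9, and GCLM (4.21), HMOX1 (4.12), GCLC (3.86) and GPX3 (1.93) were near the median of the genes tested, 3.33. Single libraries of TXNRD1, GPX1, GPX4 and SRXN1 overlapped, so their order does not exceed the spread between libraries, and the same held for GCLM, HMOX1 and GCLC. NQO1 (85.8 to 140.0 in single libraries) lay above every library of the others except 1 library of GPX1.

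**Figure D1:**
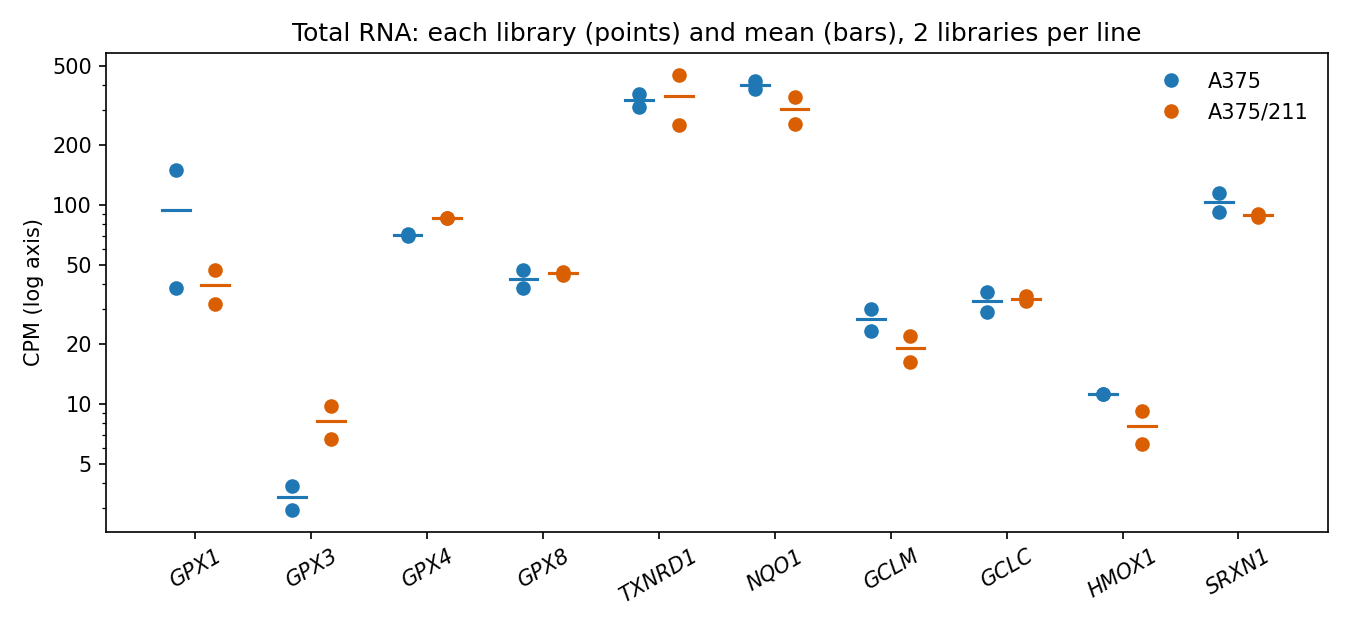
CPM of the 10 genes in total RNA on a log axis, with each RNA-seq library as a point and the mean of the 2 libraries of a line as a bar. GPX3 is higher in both A375/211 libraries (6.66 and 9.74) than in both A375 libraries (2.95 and 3.90), and GPX1 has 1 A375 library at 149.8 far above the other 3.

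None of the 10 members passed the test between the lines in total RNA (edgeR quasi-likelihood test with Benjamini-Hochberg adjustment over 19258 genes, adjusted p under 0.05), where 0.379% of all genes passed. At an unadjusted p under 0.05, 2107 genes and 1 member, GPX3, were counted, and DESeq2 also called 0 members while calling 748 genes. The labels do not say that libraries came from separate cultures, so these p-values measure the spread between libraries, which may be technical. In bulk RNA, less of a transcript in every cell and fewer cells that hold it cannot be told apart.

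Among the peroxidases, GPX3, the form secreted into plasma (ENSG00000211445, chr5:151020591-151028988), had 2.95 and 3.90 CPM in A375 and 6.66 and 9.74 CPM in A375/211. Both A375/211 libraries were above both A375 libraries, with a log2 difference of 1.25 (SE 0.31, edgeR adjusted p = 0.234). GPX4, which reduces lipid peroxides in membranes (ENSG00000167468, chr19:1103982-1106791), had 69.4 and 71.4 CPM in A375 and 86.1 and 86.2 CPM in A375/211. Its libraries did not overlap either, but the log2 difference of 0.29 (SE 0.15) did not pass (edgeR adjusted p = 0.605). The endoplasmic reticulum peroxidase GPX8 (ENSG00000164294, chr5:55160167-55167297) had 46.9 and 38.3 CPM in A375 and 46.2 and 44.3 CPM in A375/211, so that the lines overlapped.

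The cytosolic GPX1 (ENSG00000233276, chr3:49357174-49358605) was decided by 1 library. It had 149.8 and 38.2 CPM in A375 and 31.7 and 47.3 CPM in A375/211, a log2 difference of -1.25 (SE 0.67, edgeR adjusted p = 0.608). Without A375 replicate 1, which alone was high, the log2 difference was 0.05. The same library held the highest level of SLC7A11, the cystine carrier that feeds glutathione synthesis, at 216 CPM, against 35.4 in the other A375 library and 95.3 and 40.0 in A375/211. It also held the highest SLC3A2, the partner chain of that carrier, at 332 CPM. The other A375 library had 185 CPM and those of A375/211 had 286 and 154 CPM. In both lines SLC7A11 and SLC3A2 were higher in replicate 1 than in replicate 2. GPX1 did not follow this in A375/211, where replicate 1 was the lower one. Reads of GPX1 can also fall on its processed pseudogenes GPX1P1 (3312 RNA-seq counts) and GPX1P2 (272), so its level is uncertain. A further annotated gene overlaps its exons on the same strand but is not among the genes counted, so no reads were given to it. GPX1P1 had 24.9 CPM in A375 replicate 1, 30.1 in the other A375 library and 25.4 and 34.9 in A375/211, so it was not high in the library where GPX1 was.

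NQO1, a reductase of quinones (ENSG00000181019, chr16:69706996-69726668), had 379.5 and 416 CPM in A375 and 255 and 348 CPM in A375/211. Both A375/211 libraries lay below both A375 libraries, by a log2 of -0.40 (SE 0.22, edgeR adjusted p = 0.617). TXNRD1, which reduces thioredoxin (ENSG00000198431, chr12:104215779-104350307), spread more within A375/211 (251 and 449 CPM) than between the lines, with 359 and 309.9 CPM in A375. SRXN1, which restores overoxidised peroxiredoxins (ENSG00000271303, chr20:646615-653200), had 92.4 and 115 CPM in A375 and 87.1 and 90.1 CPM in A375/211.

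For glutathione synthesis, GCLM, the modifier chain of glutamate-cysteine ligase (ENSG00000023909, chr1:93885199-93909456), had 23.4 and 29.9 CPM in A375 and 16.3 and 21.8 CPM in A375/211. The A375/211 libraries were the lower ones, by a log2 of -0.48 (SE 0.24, edgeR adjusted p = 0.576). GCLC, the catalytic chain (ENSG00000001084, chr6:53497341-53616970), overlapped between the lines, with 29.1 and 36.5 CPM in A375 and 32.8 and 34.7 CPM in A375/211. HMOX1, which breaks down heme (ENSG00000100292, chr22:35380361-35394214), had 11.2 CPM in both A375 libraries and 9.28 and 6.31 CPM in A375/211, a log2 difference of -0.52 (SE 0.26, edgeR adjusted p = 0.577).

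The wider pathway lists showed no passing gene in total RNA either, where 0.379% of all genes passed, so this is near the background. This held for 10 NRF2 regulators, 29 other NRF2 target genes, 30 genes of glutathione handling, 16 of the thioredoxin and peroxiredoxin system, 3 superoxide dismutases and catalase, 10 of selenoprotein synthesis, 16 other selenoproteins and 14 of heme and iron handling. Their median log2 differences ran from -0.56 to 0.13, beside -0.003 over all genes. GPX7, a further peroxidase of the endoplasmic reticulum, had 5.90 and 5.78 CPM in A375 and 2.68 and 2.14 in A375/211 (log2 -1.28, SE 0.26, edgeR adjusted p = 0.161). DESeq2 gave GPX7 an adjusted p of 0.0468. The keto reductase AKR1C3 had 2.70 and 3.10 CPM in A375 and 5.80 and 6.60 in A375/211, and the glutathione transferase GSTM3 20.8 and 19.2 against 11.7 and 11.6. NFE2L2 itself had 35.5 and 36.2 CPM in A375 and 37.0 and 61.4 CPM in A375/211 (log2 0.46, SE 0.28, edgeR adjusted p = 0.672).

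Labelled RNA showed the members at other relative levels than total RNA. Per kilobase, averaged over the 8 BRIC-seq libraries, NQO1 (28.4), TXNRD1 (23.7), GPX1 (19.5) and GPX3 (14.3) led, against a median of 3.68, while GPX4 was at 0.736 and HMOX1 at 0.0961. GPX4 and HMOX1 did not pass the filter on low counts, so 8 of 10 members were tested in BRIC-seq. GPX4 counts at 0, 1, 3 and 6 h were 0, 6, 13 and 11 in A375 and 0, 5, 8 and 13 in A375/211. A count of 0 at 0 h allows up to 0.883 CPM in A375 and 0.816 CPM in A375/211 (3 counts per library, counting error only). Against these limits GPX4 was at least 79.7-fold lower in labelled RNA at 0 h than its mean of 70.4 CPM in A375 total RNA, and at least 106-fold lower than 86.2 CPM in A375/211, with the assays scaled separately. HMOX1 counts were 0, 3, 0 and 0 in A375 and 2, 3, 0 and 0 in A375/211, so no course over the chase was detectable at this depth.

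The gap between the assays was set beside base composition, since BrU enters RNA in place of uridine. The log2 ratio of labelled RNA at 0 h to total RNA, each in CPM with 0.5 added, was -2.87 for NQO1, -2.23 for SRXN1 counted with the readthrough gene described below, -2.21 for GPX1, -1.79 for GPX8 and -1.26 for TXNRD1. SRXN1 alone would be at -4.87, since its A375/211 library at 0 h has its reads under the readthrough gene. No ratio is given for GPX4 and HMOX1, whose counts at 0 h were 0 to 2. It was 0.20 for GCLM, 0.32 for GCLC and 0.79 for GPX3, and the median over 10637 coding genes was -0.45. GPX4, with the limits above, had 17.3% uridine in its canonical transcript, at percentile 2.7 of those genes, and GPX1 20.7%, beside a median of 26.1%. GPX3, with 22.0% uridine, and NQO1, with 28.5%, did not follow that order. Across the genes, which are not independent replicates and share these libraries, the ratio had a Spearman correlation of 0.43 with uridine content and of -0.48 with GC content, 2 measures that are tied to each other. The assays were scaled separately, the ratio was computed after the data were seen, and the part of base composition in it was not tested.

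Over the chase, the labelled RNA of GPX1, GPX3 and NQO1 rose as a share of the labelled pool in both lines. That of GCLM and GCLC fell in the mean slope over both lines. Of the 8 members tested, 3 rose and 2 fell in the mean slope over both lines (edgeR quasi-likelihood test, 13703 genes), where 29.9% of all genes rose and 34.4% fell. Slopes are given in log2 per hour on the scale of the labelled pool, so a positive slope means that a transcript's share of that pool grew during the chase. With 1 library of each line at each time, the p-values of slopes measure scatter about a straight line and not a spread between replicates. The scale matters to every sign. In 1 alternative, 9 glycolytic mRNAs were held constant (GAPDH, TPI1, PGK1, PGAM1, ENO1, PKM, ALDOA, LDHA and GPI). With the main scaling all 9 passed as rising over the chase, with a median slope of 0.43. With total counts as the library size the median slope of all genes moved by -0.17 and 79.7% of passing genes fell, against 53.5% with the TMM scaling used here, and with glycolytic mRNAs held constant it moved by -0.48 and 99.9% fell. Relative to the median of all genes, the slopes of the members differed by at most 0.03 between these scalings. That follows from the method, since a scaling shifts all genes of a library nearly alike, so it is no test of the slopes.

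**Figure D2:**
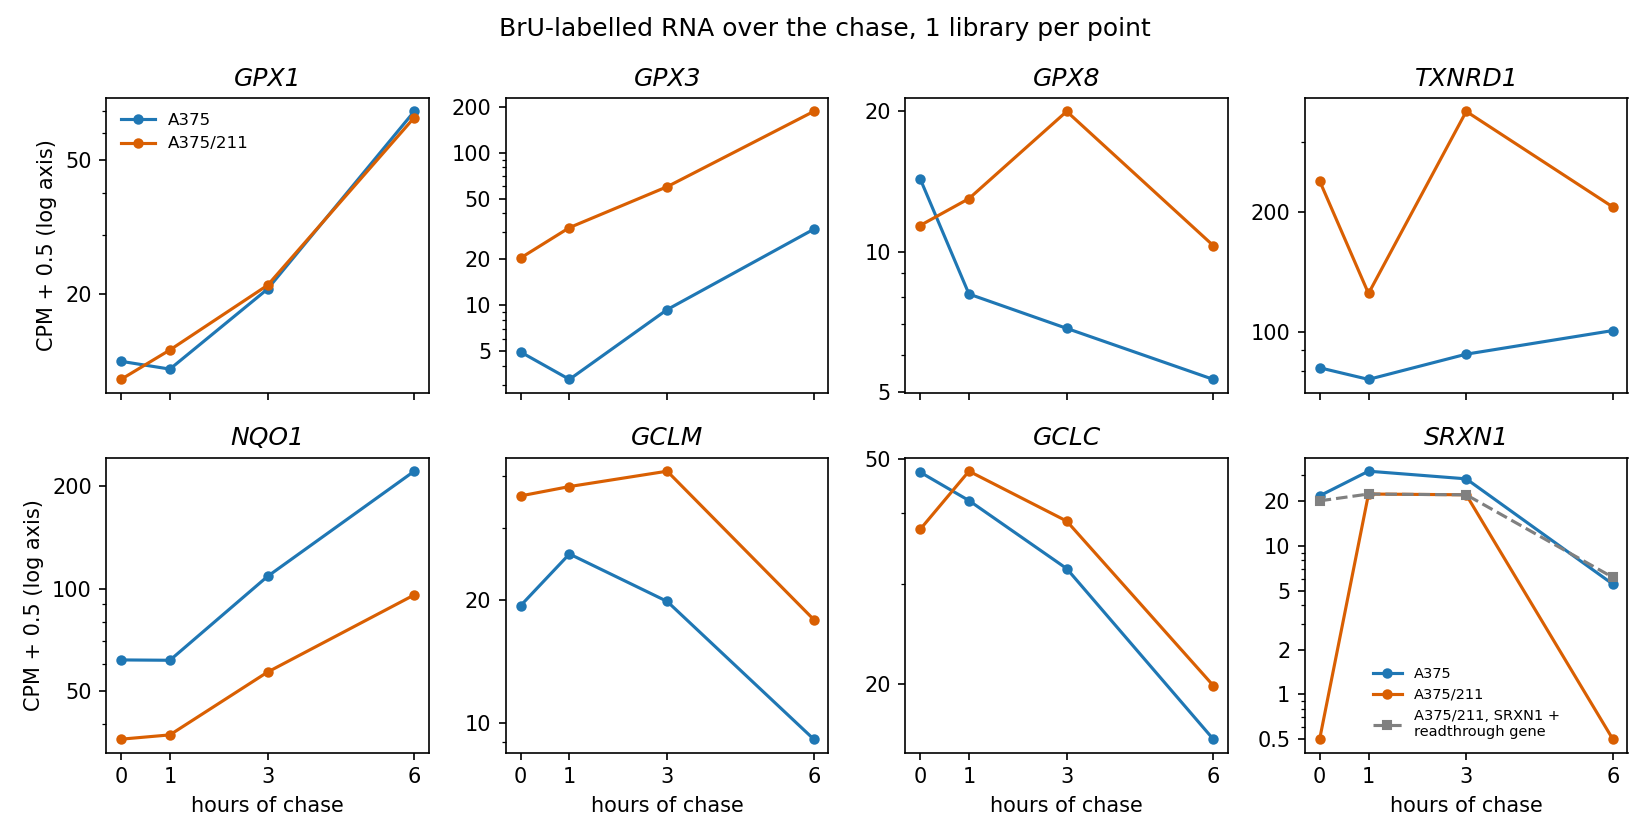
CPM plus 0.5 (log axis) of the 8 members tested in BRIC-seq against hours of chase, with 1 library per point. GPX1 runs together in both lines, GPX3, TXNRD1 and GCLM lie higher in A375/211 at every time, NQO1 lies lower, and the grey squares add the readthrough gene to SRXN1 in A375/211.

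GPX3 had the most positive slope of the members. It had 4.42, 2.75, 8.83 and 30.9 CPM at 0, 1, 3 and 6 h in A375 and 19.8, 31.7, 59.3 and 186 CPM in A375/211. The mean slope was 0.54 (SE 0.05, edgeR adjusted p = 3.4e-05), at percentile 99.3 of all genes. It was 0.05 and did not pass (edgeR adjusted p = 0.316) with glycolytic mRNAs held constant.

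GPX1 followed nearly the same course in both lines. It had 12.1, 11.4, 20.1 and 69.3 CPM in A375 and 10.6, 13.1, 20.7 and 66.4 CPM in A375/211, a mean slope of 0.45 (SE 0.04, edgeR adjusted p = 4.4e-05, percentile 97). Its mean slope was -0.03 with glycolytic mRNAs held constant. The third peroxidase tested, GPX8, had 13.8, 7.61, 6.35 and 4.82 CPM in A375 and 10.9, 12.5, 19.5 and 9.80 CPM in A375/211. Its mean slope of -0.12 (SE 0.08) did not pass (edgeR adjusted p = 0.18), though it did with total counts (-0.29) and with glycolytic mRNAs held constant (-0.60).

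NQO1 had 61.2, 61.1, 108 and 221 CPM in A375 and 35.6, 36.7, 56.4 and 95.3 CPM in A375/211. Its highest value was at 6 h in both lines, and its mean slope was 0.29 (SE 0.03, edgeR adjusted p = 9.7e-05, percentile 84.7). With glycolytic mRNAs held constant NQO1 passed as a fall, at -0.19 (edgeR adjusted p = 0.00141). TXNRD1 did not move evenly, with 81.0, 75.7, 87.6 and 100.5 CPM in A375 and 239, 125, 357 and 205 CPM in A375/211. Its mean slope was 0.05 (SE 0.06), and -0.12 with total counts and -0.43, a passing fall, with glycolytic mRNAs held constant. An antisense gene, ENSG00000261602, overlaps exons of NQO1 and had 35, 70, 136 and 225 counts in A375 and 13, 13, 50 and 66 in A375/211, against 0 in all RNA-seq libraries. The strand setting of the counting is not given in the sources used here, so reads of this gene and of NQO1 cannot be told apart.

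GCLC and GCLM, the chains of one enzyme, both fell in the mean slope, but GCLM passed as a fall in neither line alone. GCLC had 46.8, 41.6, 31.5 and 15.5 CPM in A375 and 37.0, 47.0, 38.3 and 19.4 CPM in A375/211, and its mean slope was -0.22 (SE 0.05, edgeR adjusted p = 0.00298, percentile 30.1). GCLM had 18.8, 25.4, 19.3 and 8.64 CPM in A375 and 35.3, 37.3, 40.7 and 17.4 CPM in A375/211, with a mean slope of -0.19 (SE 0.06, edgeR adjusted p = 0.0214). In both genes the lowest value of either line was at 6 h. The highest value of GCLM was not at 0 h but at 1 h in A375 and at 3 h in A375/211. The call of GCLM was lost without the 6 h library of A375 (edgeR adjusted p = 0.151) or of A375/211 (adjusted p = 0.132) and with no count filter (adjusted p = 0.0945).

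The counts of SRXN1 were shared with a neighbour. In A375/211 SRXN1 had 0, 110, 125 and 0 counts at 0, 1, 3 and 6 h, and the readthrough gene ENSG00000270299, which runs over the same exons on the same strand, had 72, 0, 0 and 23. In A375 SRXN1 had 72, 148, 201 and 25 counts and the readthrough gene 0 at every time. In total RNA the readthrough gene had 143 counts in A375 replicate 1 and 1 in each other library. Counted as 1 gene, which was chosen after the split was seen, the A375/211 course was 19.6, 21.8, 21.5 and 5.64 CPM, beside 21.2, 31.3, 27.7 and 5.02 CPM in A375. The mean slope was -0.36 (SE 0.31, edgeR adjusted p = 0.335) for SRXN1 alone and -0.32 (SE 0.10, edgeR adjusted p = 0.0225) for the sum, which passed as a fall.

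**Figure D3:**
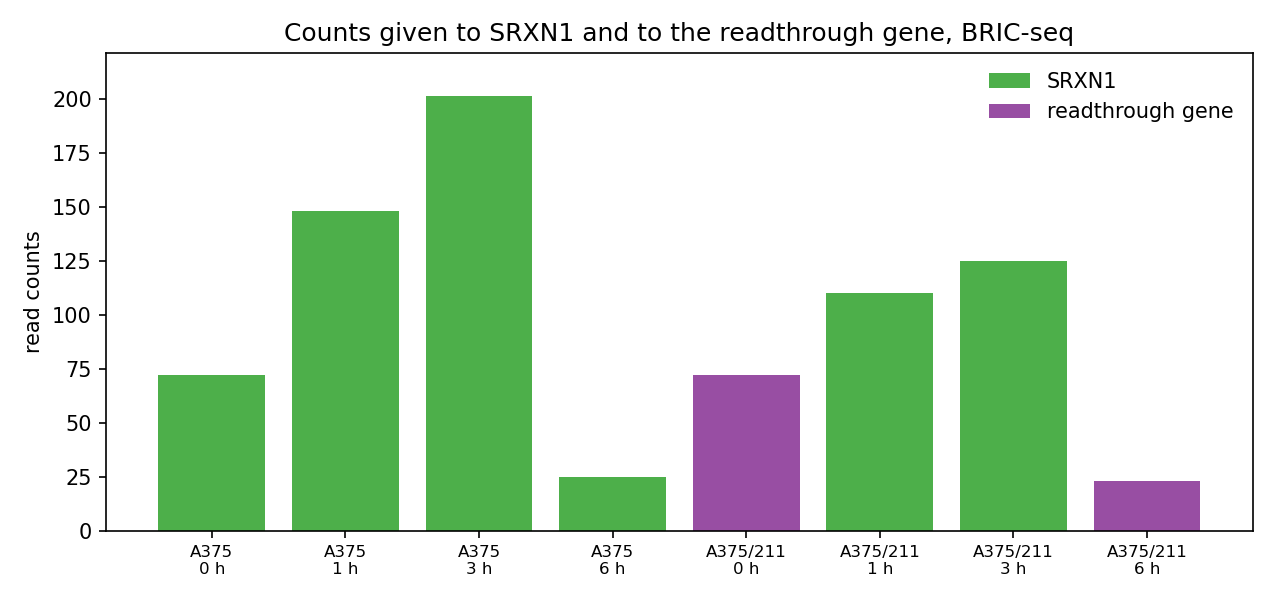
Read counts given to SRXN1 (green) and to the readthrough gene that shares its exons (purple) in the 8 BRIC-seq libraries. In A375/211 the 0 h and 6 h libraries have all their counts (72 and 23) under the readthrough gene and the 1 h and 3 h libraries (110 and 125) under SRXN1.

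Within single lines the same 3 members rose. In A375, GPX3 (0.55, SE 0.07), GPX1 (0.45, SE 0.06) and NQO1 (0.33, SE 0.04) rose and GCLC fell (-0.27, SE 0.07), where 23% of all genes rose and 24.2% fell. In A375/211, GPX3 (0.53, SE 0.07), GPX1 (0.45, SE 0.06) and NQO1 (0.25, SE 0.04) rose and 0 members fell, where 21.9% of all genes rose and 21% fell. The GCLC slope in A375/211 was -0.18 (SE 0.07, edgeR adjusted p = 0.0633), and it passed without the 0 h library of that line (-0.27, adjusted p = 0.0318). With total counts NQO1 in A375/211 was at 0.07 and did not pass, and with glycolytic mRNAs held constant GPX1 and NQO1 turned below 0 in both lines and GPX3 did not pass in either. Both lines needed their 6 h library: without it, 0 genes and 0 members passed in the slope of that line.

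**Figure D4:**
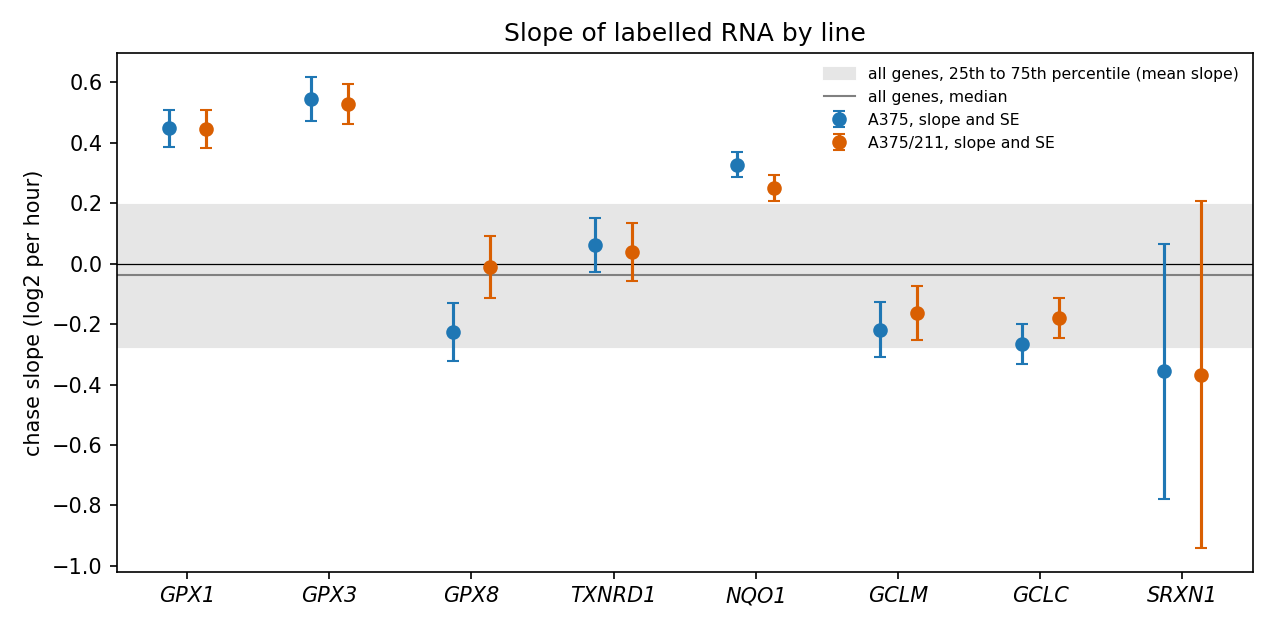
Chase slope (log2 per hour) with its SE in A375 and A375/211 for the 8 members tested, over the range from the 25th to the 75th percentile of the mean slope of all genes (grey). With the TMM scaling drawn here GPX1, GPX3 and NQO1 lie above the grey range in both lines, whereas with glycolytic mRNAs held constant GPX3 alone of these lies above 0.

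No difference in slope between the lines was detected. It passed for 0 of the 8 members and for 0% of the 13703 genes (edgeR quasi-likelihood test), with 527 genes but 0 members at an unadjusted p under 0.05, and DESeq2 called 14 genes and 0 members. The difference, A375/211 minus A375, was -0.002 (SE 0.09) for GPX1, -0.02 (SE 0.10) for GPX3, -0.08 (SE 0.06) for NQO1, 0.05 (SE 0.13) for GCLM and 0.09 (SE 0.09) for GCLC. That of GPX8 was 0.21 (SE 0.14). A p that misses the threshold with 1 library per time does not show that the slopes are equal.

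Between the lines at matched times, the labelled RNA of GPX3, TXNRD1 and GCLM was higher in A375/211 and that of NQO1 was lower. These are 3 higher and 1 lower of the 8 members tested (edgeR quasi-likelihood test with each time matched), where 13.6% of all genes were higher and 12.3% lower. The 4 times stand in for replicates here, and these libraries are not those of the RNA-seq comparison. GPX3 differed by a log2 of 2.74 (SE 0.21, edgeR adjusted p = 0.00054), with single times from 2.05 at 0 h to 3.31 at 1 h. TXNRD1 differed by 1.34 (SE 0.22, edgeR adjusted p = 0.00736), with single times from 0.71 at 1 h to 2.02 at 3 h. In total RNA, GPX3 had a log2 difference of 1.25 and TXNRD1 of 0.07.

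GCLM was higher in A375/211 at 4 of 4 times, by a log2 of 0.88 (SE 0.14, edgeR adjusted p = 0.00686), whereas both total RNA libraries of A375/211 were the lower ones in a difference that did not pass. With glycolytic mRNAs held constant the GCLM difference was 0.40 and did not pass (edgeR adjusted p = 0.0791). NQO1 was lower at 4 of 4 times, by -0.92 (SE 0.11, edgeR adjusted p = 0.00266), and was the lower one in total RNA too. GPX1 (-0.0005, SE 0.13) and GCLC (0.11, SE 0.15) did not pass, and with glycolytic mRNAs held constant GPX1 passed as lower (-0.48, edgeR adjusted p = 0.0257) and GCLC was at -0.37. With the main scaling 5 of the 9 glycolytic mRNAs were themselves higher in A375/211 (median log2 difference 0.37). Holding them constant moved the median difference of all genes by -0.48, so values on that scale carry this shift. GPX8 differed by 0.77 (SE 0.33, edgeR adjusted p = 0.136), and passed at 1.17 without the 0 h library of A375 (adjusted p = 0.0283) or of A375/211 (adjusted p = 0.0282). SRXN1 differed by -1.57 (SE 0.85) alone and by -0.25 (SE 0.16) with the readthrough gene added, and neither passed.

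**Figure D5:**
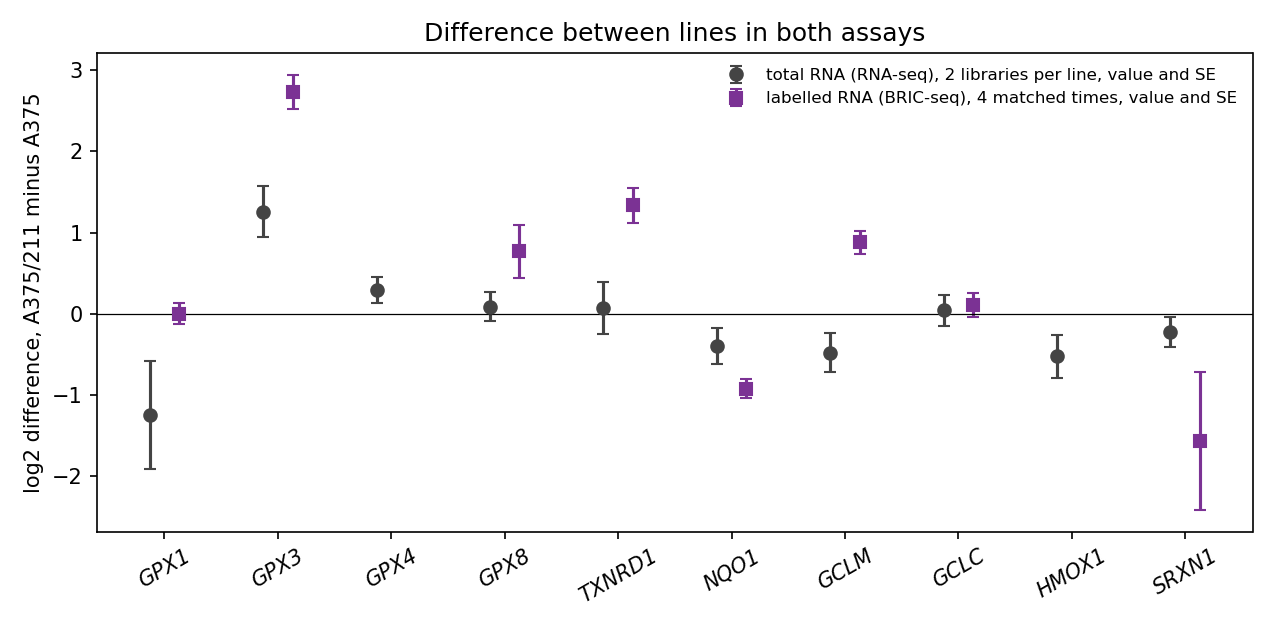
Log2 difference between the lines, A375/211 minus A375, with its SE, in total RNA (circles) and in labelled RNA with times matched (squares). GPX3 lies above 0 in both, NQO1 below 0 in both, and GCLM lies below 0 in total RNA (-0.48) and above 0 in labelled RNA (0.88). GPX4 and HMOX1 have no labelled value.

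Sums of fibroblast, leukocyte and endothelial markers moved with this comparison in labelled RNA, and that of keratinocyte markers did not. The 6 fibroblast markers summed to 2.75 to 14.9 CPM in the A375 libraries and 27.7 to 149 CPM in those of A375/211, the 6 leukocyte markers to 1.69 to 7.43 and 6.54 to 51.5 CPM, and the 5 endothelial markers to 1.06 to 4.12 and 28.3 to 47.2 CPM. LUM, LYZ and KDR, 1 marker of each of these lists, passed as higher, where 2 fibroblast, 1 leukocyte and 1 endothelial marker were tested. The keratinocyte markers summed to 1.21 to 4.12 CPM in A375 and 1.78 to 2.70 CPM in A375/211, and the 1 tested did not pass. PTPRC, CD3E, CD79A and TYROBP, and CDH5 and VWF, were at 0 in all BRIC-seq libraries. In total RNA the fibroblast sums were 26.3 to 61.5 CPM in A375 and 26.1 to 27.0 CPM in A375/211, but they hold opposite differences. COL1A2 had 17.2 and 51.0 against 0.236 and 0.518 CPM, whereas LUM had 4.28 and 5.53 against 12.3 and 11.9 CPM, PDGFRB 4.42 and 4.66 against 12.9 and 11.8 CPM and DCN 0.147 and 0 against 1.27 and 1.29 CPM, and 0 of the 4 passed (edgeR adjusted p from 0.0633 to 0.189), while all 4 passed with DESeq2 and COL1A2 also with no count filter and with a replicate block. The other sums in total RNA were 1.36 to 2.95 and 1.04 to 1.50 CPM for leukocyte, and 3.83 to 4.47 and 6.36 to 9.51 CPM for endothelial markers. For keratinocyte markers they were 15.2 to 20.4 CPM in A375 and 16.8 to 18.3 CPM in A375/211. Their part in the differences of GPX3, TXNRD1, GCLM and NQO1 was not tested.

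The pathway around the members was described by the same fits. The mean slope had a median of -0.04 over all genes, of which 29.9% rose and 34.4% fell. Of 26 other NRF2 target genes 20 rose and 1 fell (median 0.28), among them the peroxiredoxin PRDX1 (0.45, SE 0.02), malic enzyme ME1 (0.40, SE 0.03) and the ferritin chain FTL (0.46, SE 0.04). Of 25 genes of glutathione handling 18 rose and 0 fell (median 0.25), among them the glyoxalase GLO1 (0.38, SE 0.03) and glutathione synthetase GSS (0.33, SE 0.04). SOD1 (0.37, SE 0.04), CAT (0.27, SE 0.04) and SOD3 made 3 of 3 that rose among superoxide dismutases and catalase, and 8 of 13 heme and iron genes rose, with the transferrin receptor TFRC at 0.29 (SE 0.02). Of 14 thioredoxin and peroxiredoxin genes 8 rose and 3 fell, with the stress protein SESN1 at -0.73 (SE 0.08). Reads of PRDX1 and FTL can be shared with processed pseudogenes. CAT (0.11) did not pass with total counts. With glycolytic mRNAs held constant every median of these lists and the slope of every gene named here as rising was below 0. On that scale 0 of 26 NRF2 target genes rose and 18 fell, where 8 of all 13703 genes rose and 12098 fell.

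Among 9 NRF2 regulators 1 rose and 5 fell (median -0.23). The labelled RNA of NFE2L2 went from 87.7 CPM at 0 h to 10.6 at 6 h in A375 and from 109 to 19.1 in A375/211, a mean slope of -0.45 (SE 0.07, edgeR adjusted p = 0.000823). Its partner MAFG (-0.45, SE 0.06) and the repressor BACH1 (-0.23, SE 0.04) fell too, and RBX1 of the ubiquitin ligase that degrades NRF2 rose (0.27, SE 0.05), which was 0.10 and did not pass with total counts and turned to -0.21 with glycolytic mRNAs held constant. Of 9 genes of selenoprotein synthesis 2 rose and 5 fell (median -0.16), with the kinase PSTK at -0.56 (SE 0.08). Of 12 other selenoproteins 6 rose and 2 fell, with SELENON at 0.48 (SE 0.06). The median of the selenoproteins was 0.16, and -0.003 with total counts and -0.31 with glycolytic mRNAs held constant.

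Between the lines at matched times, 10 of 26 other NRF2 target genes were higher in A375/211 labelled RNA and 4 lower (median 0.42, beside -0.05 over all genes, of which 13.6% were higher and 12.3% lower). With glycolytic mRNAs held constant 4 were higher and 9 lower. On that scale 827 of all 13703 genes were higher and 5971 lower. SLC7A11 had 3.24, 2.75, 2.76 and 1.21 CPM in A375 and 51.4, 72.0, 82.2 and 41.2 CPM in A375/211, a log2 difference of 4.66 (SE 0.20, edgeR adjusted p = 8.6e-05). No value of the lines overlapped, whereas its total RNA libraries did. Its partner SLC3A2 differed by 1.65 (SE 0.28), and the autophagy receptor SQSTM1, which binds KEAP1, by 2.76 (SE 0.18), with 58.9 to 119 CPM in A375 and 420 to 703 CPM in A375/211. In total RNA SQSTM1 had 1194 and 697 CPM in A375 and 1074 and 985 CPM in A375/211. SLC7A11, SLC3A2 and SQSTM1 were named in total RNA after their values were seen.

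Further genes of these lists moved both ways. The drug exporter ABCC2 (1.27, SE 0.14), PRDX1 (0.70, SE 0.08) and the ferritin chain FTH1 (0.75, SE 0.11) were higher in A375/211 labelled RNA, and the keto reductase AKR1C2 (-2.16, SE 0.26) and the extracellular dismutase SOD3 (-2.59, SE 0.34) were lower. PRDX1 (0.22) and FTH1 (0.27) did not pass with glycolytic mRNAs held constant. Reads of AKR1C2 can be shared with its near-identical family members. In all, 5 of 25 genes of glutathione handling were higher and 1 lower, and 3 of 14 of the thioredoxin and peroxiredoxin system were higher and 2 lower, where 13.6% of all genes were higher and 12.3% lower, so these counts are near the background.

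For each tested member the gene with the closest course over the 8 BRIC-seq libraries was sought by the Euclidean distance of centred log2 CPM, among up to 4272 well-counted genes. GCLC was closest to EPG5 (distance 0.20), NQO1 to CMBL (0.24), GCLM to SYTL2 (0.31) and GPX1 to the pseudogene RPL7P1 (0.34). GPX8 was closest to TOR1AIP2 (0.60), GPX3 to SPARC (0.71), TXNRD1 to TNS2-AS1 (0.93) and SRXN1 to CLDN12 (4.52). SRXN1, with its counts of 0, had no close neighbour.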

How the data were processed

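The authors deposited 2 tables of raw read counts per Ensembl gene, without normalization, 1 for RNA-seq and 1 for BRIC-seq. Reads were aligned with HISAT2 2.1.0, and StringTie is also named, per the submitters' processing notes. The notes give hg19 and the series' design text hg38, so coordinates printed here come from GENCODE 44 (hg38) or RefSeq and not from the tables. How strand and multi-mapping reads were handled is not given in the sources used here. The kit was a stranded one for total RNA, per the labels' protocols.

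Counts were tested with edgeR 4.0.16 in R 4.3.3 (quasi-likelihood F test, TMM scaling, filterByExpr by line with a minimum count of 10 and a minimum total of 15, Benjamini-Hochberg adjustment over all genes, threshold 0.05). Fits used the line (RNA-seq), the line and hours (mean slope), a slope per line (slopes and their difference), or the line with each time as a factor (matched times). Each SE was derived from the log2 value and its F. A row that names no gene, 0.000108% to 0.00122% of a BRIC-seq library, was left out. DESeq2 1.42.0, other scalings, other filters, a replicate block and leaving out each library were alternatives. Fits were run on simulated counts with the same spread for every gene and linear changes. That setting is simpler than these libraries, so it checks the code and not the calls made here. Depth is the total count per library, and floors of 3 counts cover counting error only. The 2 libraries of each line differed by more than sampling noise (chi-square over degrees of freedom 113 and 58.1). Of each pathway list, up to 4 genes with the smallest p in a comparison could be named, with SLC7A11, SLC3A2, SQSTM1 and single cell type markers in total RNA as exceptions, named after their values were seen. The members, lists and named genes were chosen with earlier results of these data known, so no p-value is adjusted over a list and no list is tested as a set. For protein features, coding sequences of the annotation were translated.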

Additional observations from a re-analysis of the deposited data

Results flagged for a closer look

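GCLM had differences of opposite sign in the assays, and the one in total RNA did not pass. The difference between A375/211 and A375 was -0.48 (log2, edgeR adjusted p = 0.576) in total RNA, where both A375/211 libraries lay below both A375 libraries, and 0.88 in labelled RNA, where A375/211 was higher at 4 of 4 times. With glycolytic mRNAs held constant the labelled difference was 0.40 and did not pass (edgeR adjusted p = 0.0791). The difference between the assays was not tested.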

How the results depend on the processing

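The count of members that passed kept within 1.5 times of the reported one in total RNA, the mean slope, the slope difference and the matched line difference under every alternative run. The directions did not hold with glycolytic mRNAs held constant. There the mean slope had 0 members rising and 6 falling, where 8 of all 13703 genes rose and 12098 fell. The matched line difference had 2 members higher and 2 lower, where 827 of all 13703 genes were higher and 5971 lower. Genes passing in total RNA numbered 73, 748 with DESeq2, 237 with no count filter, and 0 to 47 with 1 library left out, where the lone library of a line is assumed to vary like the other line: 9 without A375 replicate 1, 0 without A375 replicate 2, 47 without A375/211 replicate 1 and 15 without A375/211 replicate 2. The labels do not say that libraries a and b pair the lines. With 2 numbers the deviations of same-numbered libraries had a correlation of 0.31, and a replicate block gave 192 genes and 0 members. The slope difference passed for 14 genes with DESeq2 and 1 with no count filter. With glycolytic mRNAs held constant 10849 genes passed in the A375 slope, 10945 genes and 5 members, all falling, in the A375/211 slope, and 6798 in the matched line difference. Leaving out 1 library gave 0 to 6744 genes and 0 to 5 members in the A375 slope, 0 to 5890 genes and 0 to 4 members in the A375/211 slope, and 1766 to 2781 genes in the matched line difference (3546 with all libraries), the fewest without the 3 h library of A375/211. The cause of these shifts was not tested.

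Signs turned mostly with the scale. With total counts the slope of TXNRD1 was -0.12 on average, -0.090 in A375 and -0.15 in A375/211. With glycolytic mRNAs held constant the mean slope was -0.034 for GPX1, -0.43 for TXNRD1, -0.19 for NQO1, -0.21 for RBX1, -0.080 for ME1, -0.032 for PRDX1, -0.012 for FTL, -0.15 for GSS, -0.10 for GLO1, -0.11 for SOD1, -0.20 for CAT, -0.0032 for SELENON and -0.19 for TFRC. On that scale the A375 slope was -0.035 for GPX1, -0.42 for TXNRD1 and -0.15 for NQO1, the A375/211 slope was -0.033, -0.43 and -0.23, and the matched line difference of GCLC was -0.37. GPX8 in A375/211 had a slope of 0.0142 with RLE size factors and with DESeq2. The GPX1 slope difference, near 0, was 7.2e-05 with RLE size factors, 0.0012 with a mean CPM of at least 5 and 0.0028 with glycolytic mRNAs held constant, and its matched line difference was 0.0373 with RLE size factors and with DESeq2 and 0.00016 with no count filter. The slope difference of SRXN1 was 0.069 with the readthrough gene added.

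With 1 library left out, values whose sign turned ranged, in total RNA, from -1.92 to 0.045 for GPX1, -0.051 to 0.24 for GPX8, -0.41 to 0.43 for TXNRD1, -0.11 to 0.21 for GCLC, -0.21 to 0.56 for SQSTM1, -1.67 to 0.93 for SLC7A11 and -0.73 to 0.24 for SLC3A2. The A375 slope of SRXN1 ranged from -0.54 to 0.090. The A375/211 slope ranged from -0.11 to 0.29 for GPX8, -0.036 to 0.25 for TXNRD1, -0.25 to 0.067 for GCLM and -1.02 to 0.85 for SRXN1. The slope difference ranged from -0.13 to 0.17 for GPX1, -0.16 to 0.10 for GPX3, -0.10 to 0.19 for TXNRD1, -0.14 to 0.29 for GCLM, -0.0095 to 0.26 for GCLC and -0.67 to 1.20 for SRXN1. The matched line difference of GPX1 ranged from -0.061 to 0.081. GPX4 and HMOX1 had at most 13 and 3 counts in a BRIC-seq library and did not pass the filter on low counts. The cause of their low counts was not tested.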
